A study of Homo sapiens with 12 samples.

Results

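The genes described here encode the proteins of the mitochondrial ribosome that carry MRPL or MRPS names. They were chosen by symbol, as all genes of the deposited table whose symbol starts with MRPL or MRPS followed by a digit, a rule that uses no measured value. The rule found 78 of the 20036 genes, 49 with MRPL and 29 with MRPS names, all protein coding and spread over 21 chromosomes. By their place in the human structure, 51 belong to the large subunit, which includes MRPS18A and MRPS30 despite their names, and 26 to the small subunit. MRPS36 is counted by the rule but is known as a part of the 2-oxoglutarate dehydrogenase complex and not of the ribosome.

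RNA was sequenced from MV-4-11, an established acute myeloid leukemia line listed with a bone marrow origin and a WT genotype, in 12 libraries of 4 groups with 3 libraries each. The groups are Comb (eliglustat plus venetoclax), ELI (eliglustat alone), ABT (venetoclax, also known as ABT-199, alone) and DMSO (the solvent control), with a treatment time of 48 h and doses not given in the sources used here. Eliglustat blocks glucosylceramide synthase, the product of UGCG, and venetoclax inhibits the survival protein BCL2 on the outer mitochondrial membrane. The series asks whether targeting UGCG makes such cells more sensitive to venetoclax. The labels do not say whether replicates are separate cultures, so the p-values cover the spread between these libraries only, and it may be technical.

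Mitochondrial ribosomes translate the messenger RNAs that mitochondrial DNA encodes, all of them for subunits of the respiratory chain and the ATP synthase. Their ribosomal RNAs come from mitochondrial DNA, while every protein is encoded in the nucleus, made in the cytosol and imported. Compared with bacterial ribosomes they hold less RNA and more protein, so some proteins have a bacterial counterpart and others exist only in mitochondria. In acute myeloid leukemia, blocking mitochondrial translation has been studied as a way to restrain leukemic cells and to make them more sensitive to venetoclax.

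Some of these genes hold the same short sequences in their start regions, each of them found in a minority of the members. RefSeq promoter windows of GRCh38.p14, each from 250 bases before to 50 bases after a gene's start, were found for 69 of the 78 members. The string AAGATGGC, the core of a YY1 motif, stood on either strand in the windows of 21 of the 69 members (30.4%), against 3.52% of the 27305 genes in the table. The ETS string ACTTCCGG stood in 12 (17.4%, against 4.95% of all genes), the E-box CACGTG in 9 (13.0%, against 8.77%) and the palindromic NRF1 string in capitals in MRPL17 below in 1 (1.45%, against 1.52%). The shares of all genes were taken with no limit to protein-coding genes, while all members code for protein, so the 2 sides are not matched. None of these strings lies within another, and a match is a description of letters, not a site. The 3 longer stretches run from 110 bases before to 10 bases after the start, at chr11:59810769-59810888 (minus strand) for MRPL16, chr14:22829777-22829896 (plus) for MRPL52 and chr11:6683331-6683450 (minus) for MRPL17. All 3 genes were lower in eliglustat-treated groups, and they were picked after the values were seen. Capitals mark ACTTCCGG in MRPL16, AAGATGGC and ACTTCCGG in MRPL52, and the NRF1 string in MRPL17.
MRPL16: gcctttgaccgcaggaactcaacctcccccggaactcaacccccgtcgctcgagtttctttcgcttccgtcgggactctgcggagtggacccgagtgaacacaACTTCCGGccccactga
MRPL52: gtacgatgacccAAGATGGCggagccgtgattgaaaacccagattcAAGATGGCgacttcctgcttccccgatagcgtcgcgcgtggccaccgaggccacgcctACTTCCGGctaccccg
MRPL17: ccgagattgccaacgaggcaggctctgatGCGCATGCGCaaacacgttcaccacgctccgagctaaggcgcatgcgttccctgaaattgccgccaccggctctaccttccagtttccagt

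In 16 of the 21 members AAGATGGC lay on the gene's own strand 7 to 36 bases after the start, as 6 windows of 30 bases show, with the string in capitals. The string holds ATG, the letters of a start codon. Whether the coding sequence begins there was not checked, so a match may be no more than that. The 6 windows too were picked after the values were seen. MRPS18A, MRPS18B and MRPS7 were taken from members that were lower in eliglustat-treated groups. MRPL45, MRPS30 and MRPL50 were taken from members that were higher in Comb against DMSO and in Comb against ABT. They did not pass in ELI against DMSO. MRPS18A lies at chr6:43687764-43687793 (minus strand), MRPS18B at chr6:30617852-30617881 (plus), MRPS7 at chr17:75261887-75261916 (plus), MRPL45 at chr17:38297170-38297199 (plus), MRPS30 at chr5:44808949-44808978 (plus) and MRPL50 at chr9:101398577-101398606 (minus).
MRPS18A: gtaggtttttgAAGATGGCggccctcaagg
MRPS18B: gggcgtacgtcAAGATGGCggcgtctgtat
MRPS7: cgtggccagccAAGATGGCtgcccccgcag
MRPL45: tttgcgggaacAAGATGGCagcccccatac
MRPS30: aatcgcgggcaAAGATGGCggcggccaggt
MRPL50: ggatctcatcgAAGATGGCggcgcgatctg

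AAGATGGC thus stood in genes that moved in opposite directions. It was found in 9 of 36 members with a window that were lower in at least 1 comparison of an eliglustat-treated group with a group without eliglustat, in 4 of 9 that were higher, in 5 of 19 that passed in none and in 3 of 5 too low to test. ACTTCCGG was found in 6 of the 36, 0 of the 9, 4 of the 19 and 2 of the 5.

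The deposited values are FPKM, read counts scaled to gene length and library size, in 1 table for all 12 libraries. Whole reads could be recovered from their steps and summed to between 17259898 and 21082302 per library. All 10 markers of a myelomonocytic line reached 1 FPKM in at least 1 library, MPO and ITGAM at no more than 1.57 and 1.77 FPKM, while T cell and stromal markers stayed under 1 FPKM and the 3 erythroid markers were at 0 in every library. Of 3 epithelial markers 1, KRT18, reached 1 FPKM, and the 3 summed to 1.65 to 2.14 FPKM in Comb, 1.45 to 2.19 in ELI, 3.85 to 4.63 in ABT and 3.54 to 5.05 in DMSO. Of 3 endothelial markers 1, PECAM1, reached 1 FPKM, and the 3 summed to 16.99 to 17.6 FPKM in Comb, 18.3 to 19.02 in ELI, 11.1 to 13.3 in ABT and 13.01 to 14.8 in DMSO. The myelomonocytic markers summed to 589 to 597 FPKM in Comb, 578 to 606 in ELI, 466 to 537 in ABT and 519.9 to 585 in DMSO. Both smaller lists thus differed without overlap between groups with and without eliglustat, as did the levels of the members, and their part in the results was not tested. Within ELI, ABT and DMSO, replicate 1 lay opposite to replicates 2 and 3 along the GC content of genes. Deviations were taken from each gene's mean in the group, so a lean in 1 library is matched by an opposite lean in others. Their Spearman correlation with GC content was taken across genes, which are not independent replicates. It was -0.70, 0.69 and 0.19 in ELI replicates 1 to 3, -0.70, 0.38 and 0.62 in ABT, and -0.79, 0.81 and 0.40 in DMSO. In the Comb libraries it was -0.29 to 0.26.

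Most members were well expressed. Of the 78, 71 reached 1 FPKM in 3 or more libraries and were tested, 47 of the large subunit, 23 of the small subunit and MRPS36. Their median level over all libraries was 17.4 FPKM, against 7.70 FPKM for all 9959 genes that passed, and 52 members averaged 10 FPKM or more. MRPL3, a protein shared by all ribosomes, was the highest at 74.996 FPKM, followed by MRPL51 at 67.8 and MRPS21 at 55.7. In single libraries MRPL3 ranged from 59.7 to 83.2 FPKM, both in DMSO, and its range overlapped that of MRPL51. No comparison of these 3 genes passed.

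At the low end of the tested members were MRPS25 at 2.09 FPKM, MRPL12 at 1.20 and MRPS5 at 0.994. MRPL12, the stalk protein that also binds the mitochondrial RNA polymerase, rested on 12 to 35 reads per library, and 68.2% of its exon bases are shared with another gene in GENCODE 29. The 7 members too low to test were MRPL2, MRPL38, MRPL46, MRPL53, MRPS18C, MRPS24 and MRPS28, and MRPL53 was listed at 0 in every library. Each of the 7 shares 11.3% to 45.2% of its exon bases with other genes, against a median of 0 for the tested members. How the authors counted reads in shared exons, on either strand, or reads that also match processed copies elsewhere is not given in the sources used here, so levels of such genes are uncertain.

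**Figure D1:**
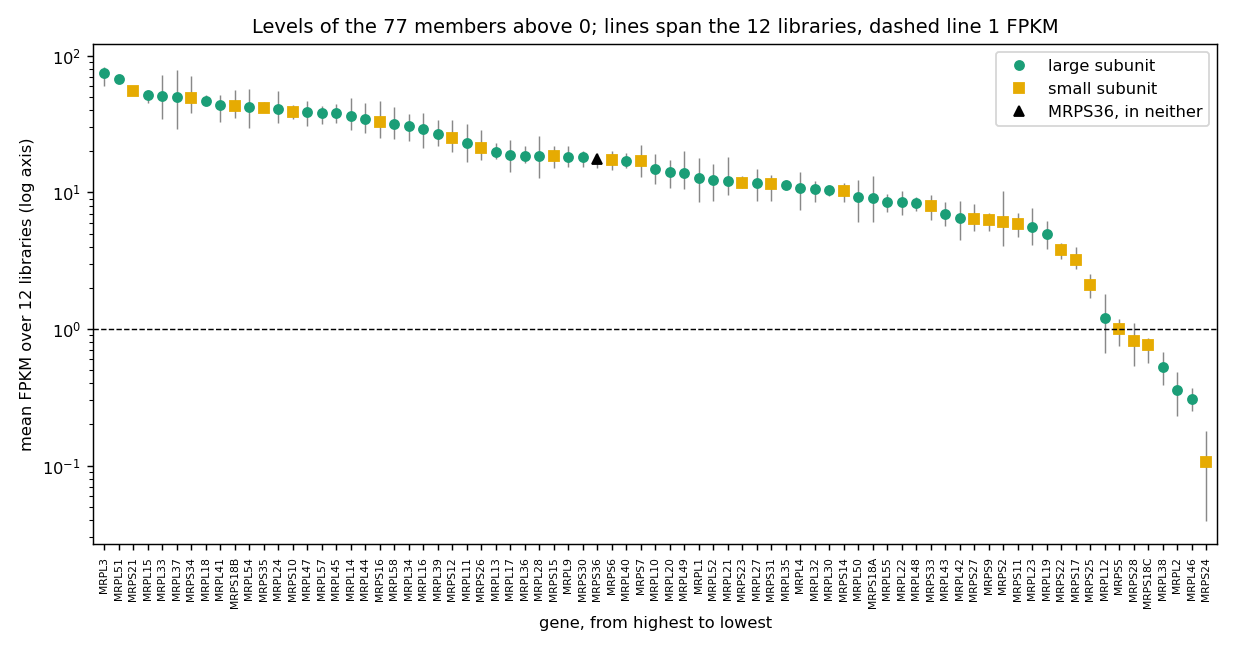
Mean FPKM of the 77 members above 0 on a log axis, ordered by level, with lines that span the 12 libraries and colours for the subunit. MRPL3 is highest, and the 6 members below MRPS5 in level were not tested.

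As a whole, the genes were lower in both groups that received eliglustat than in both groups that did not. The large subunit members summed to 1056, 1039 and 1051 FPKM in Comb, 1007, 1013 and 1041 in ELI, 1235, 1235 and 1312 in ABT and 1145, 1175 and 1222 in DMSO. The small subunit members summed to 405, 399 and 404 FPKM in Comb, 392, 395 and 404 in ELI, 491, 496 and 517 in ABT and 429, 462 and 459 in DMSO. For both subunits every library with eliglustat lay below every library without it, and every ABT library lay above every DMSO library. All members together took 0.345% ± 0.0026 of reads in Comb, 0.338% ± 0.0044 in ELI, 0.407% ± 0.0116 in ABT and 0.383% ± 0.0076 in DMSO (SD, n = 3). Exact two-sided permutation tests of this share gave p = 0.10, the smallest that 3 libraries against 3 allow, for ELI against DMSO, ABT against DMSO, Comb against DMSO, Comb against ABT and Comb against ELI. The same exact permutation tests of the members' summed FPKM gave p = 0.10 in the first 4 of these and p = 0.2 in Comb against ELI. As a share of all FPKM the members stood at 0.568% ± 0.0013 in Comb, 0.567% ± 0.0122 in ELI, 0.641% ± 0.0162 in ABT and 0.615% ± 0.0134 in DMSO (SD, n = 3), with exact permutation p = 0.10 for ELI against DMSO, Comb against DMSO and Comb against ABT, 0.2 for ABT against DMSO and 1.0 for Comb against ELI. On this scale the ABT libraries overlapped DMSO, and Comb overlapped ELI. In bulk RNA, fewer cells that make a transcript and less of it per cell cannot be told apart.

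The proteins of the cytosolic ribosome summed to 28052, 27159 and 27818 FPKM in Comb, 23841, 25067 and 25766 in ELI, 26062, 27295 and 28810 in ABT and 24925, 27465 and 28856 in DMSO. The Comb libraries lay within the range of the DMSO libraries and above all ELI libraries, and the ELI libraries overlapped DMSO.

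**Figure D2:**
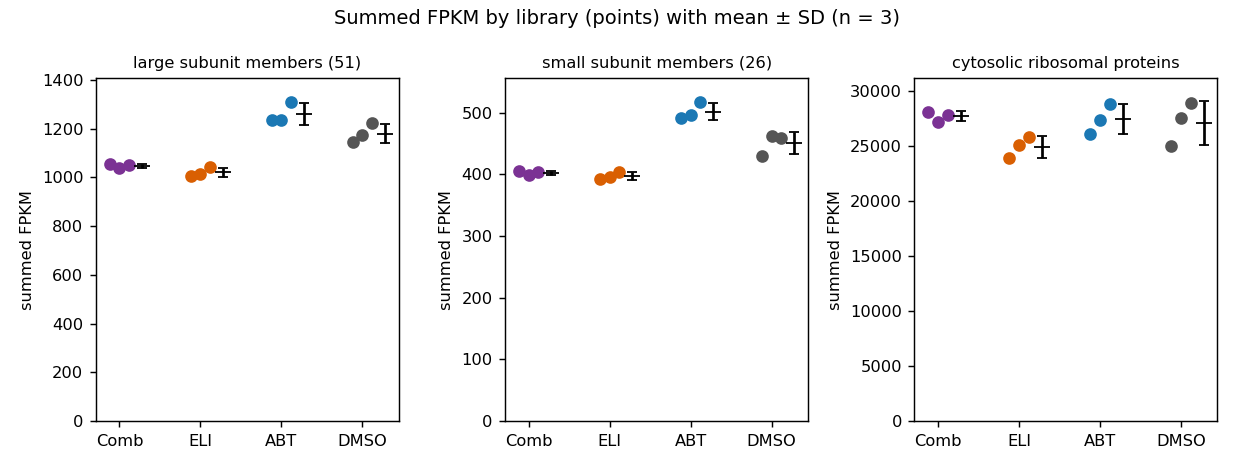
Summed FPKM per library (points) with mean ± SD (n = 3) for the 51 large subunit members, the 26 small subunit members and the cytosolic ribosomal proteins, with Comb, ELI, ABT and DMSO from left to right. For both mitochondrial subunits the Comb and ELI points lie below all ABT and DMSO points, and for the cytosolic proteins they overlap them.

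Gene by gene, 29 of the 71 tested members fell and 1 rose with eliglustat alone, by limma on log2(FPKM + 1) with Benjamini-Hochberg adjustment over all 9959 genes at 0.05. Across all tested genes 19.8% fell and 16.4% rose in ELI against DMSO. The median difference in log2(FPKM + 1) was -0.17 for the members and 0.01 for all genes, and 51 of the 71 were below 0. With both drugs against DMSO, 26 members fell and 8 rose, where 25.8% of all genes fell and 25.7% rose, with a median of -0.12 for the members and 0.02 for all genes. With both drugs against venetoclax alone, 36 fell and 8 rose, where 31.7% of all genes fell and 35.4% rose, with medians of -0.17 and 0.02. Comb against DMSO shares the DMSO libraries with ELI against DMSO and the Comb libraries with Comb against ABT. ELI against DMSO and Comb against ABT share none, and 27 members fell in both, 93.1% of those that fell in ELI against DMSO and 75% of those that fell in Comb against ABT. Over all tested genes these shares were 91.3% and 56.9%.

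Across the 4 group means the highest was 1.33 times the lowest in the median member, and 21 of the 71 members exceeded 1.5. The highest mean was in Comb for 19 members, ELI for 4, ABT for 43 and DMSO for 5, and the lowest in Comb for 20, ELI for 28, ABT for 14 and DMSO for 9. Neither these ranks nor the ranges were worked out over all genes, so they are not to be read as particular to the members.

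**Figure D3:**
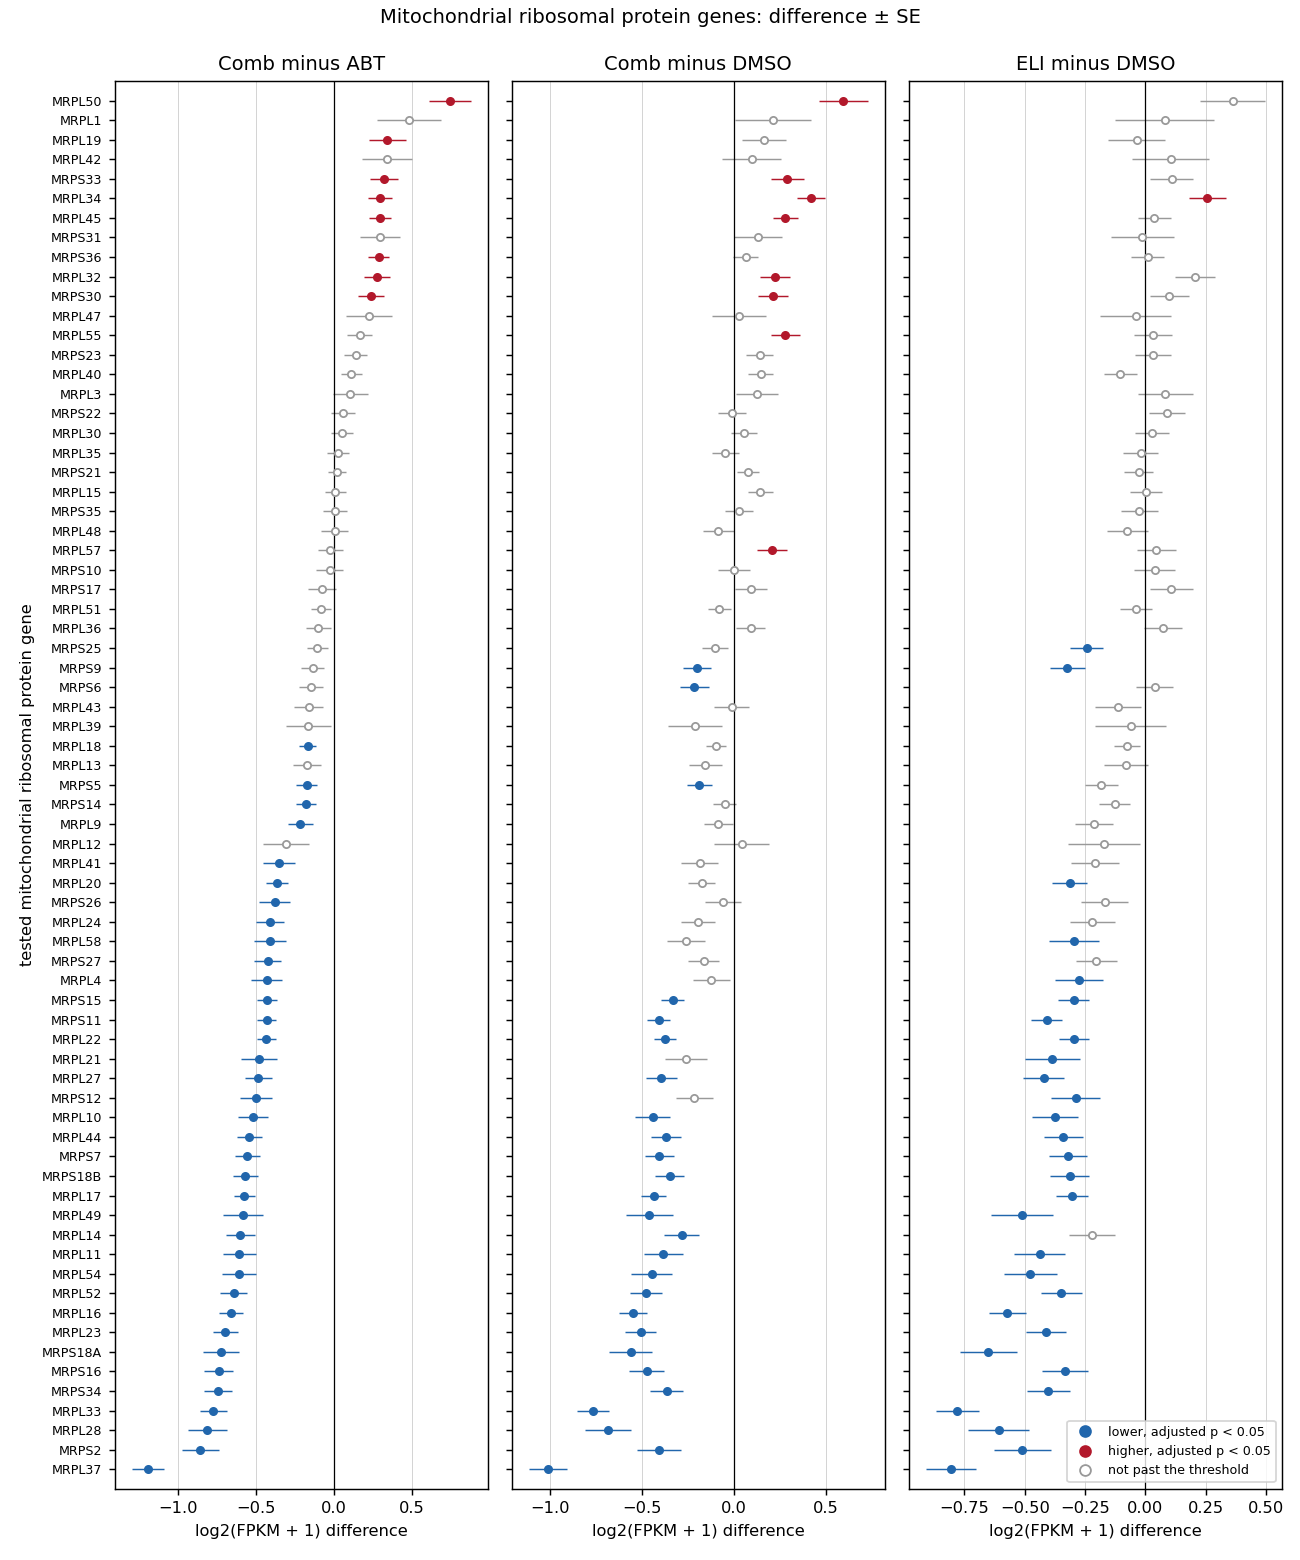
Difference in log2(FPKM + 1) with its SE for the 71 tested members in comparisons between the groups, with blue for members that fell, red for members that rose and grey for the others. MRPL37 lies at the low end of Comb minus ABT, Comb minus DMSO and ELI minus DMSO, and fewer members are red than blue in each.

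Of all members MRPL37, a large subunit protein with no bacterial counterpart, fell furthest. It stood at 31.6, 30.4 and 29.2 FPKM in Comb, 32.7, 38.1 and 34.8 in ELI, 62.8, 71.2 and 79.0 in ABT and 54.5, 70.7 and 62.5 in DMSO. All 6 libraries with eliglustat lay below all 6 without it, and Comb lay below ELI. The difference was -0.81 in ELI against DMSO (SE 0.10, adjusted p = 0.00015), -1.01 in Comb against DMSO (SE 0.10, adjusted p = 9.4e-06) and -1.19 in Comb against ABT (SE 0.10, adjusted p = 1.9e-06). In mean FPKM, Comb held 0.428 of the ABT level and 0.486 of the DMSO level.

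MRPL33, a small protein with a bacterial counterpart, had 38.7, 34.5 and 38.8 FPKM in Comb, 35.8, 36.4 and 38.6 in ELI, 61.4, 59.7 and 72.8 in ABT and 60.9, 61.2 and 70.4 in DMSO. Comb and ELI overlapped each other, ABT and DMSO overlapped each other, and the libraries with eliglustat lay far below those without. The protein's transcript fell by 0.78 in ELI against DMSO (adjusted p = 6.1e-05), by 0.76 in Comb against DMSO (adjusted p = 2.4e-05) and by 0.77 in Comb against ABT (adjusted p = 1.8e-05). BABAM2 shares 21.1% of the exon bases of MRPL33.

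MRPL28, also related to a bacterial protein, had 13.1, 13.9 and 12.8 FPKM in Comb, 12.8, 15.0 and 14.3 in ELI, 22.3, 24.0 and 25.9 in ABT and 17.1, 26.04 and 23.4 in DMSO. DMSO replicate 1 was the low one of its group and still lay above all libraries with eliglustat. MRPL28 fell by 0.61 in ELI against DMSO (adjusted p = 0.0031), by 0.68 in Comb against DMSO (adjusted p = 0.0008) and by 0.81 in Comb against ABT (adjusted p = 0.00017). MRPL16, whose bacterial counterpart helps to position transfer RNA, had 22.9, 22.7 and 22.9 FPKM in Comb, 20.97, 21.8 and 24.9 in ELI, 35.4, 38.3 and 36.2 in ABT and 31.4, 36.6 and 34.0 in DMSO. Its libraries with and without eliglustat did not overlap. MRPL16 fell by 0.57 in ELI against DMSO (adjusted p = 0.00019), by 0.55 in Comb against DMSO (adjusted p = 0.0001) and by 0.66 in Comb against ABT (adjusted p = 2.1e-05), and its start region is the first of those printed above.

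Further large subunit proteins found only in mitochondria fell as well. MRPL52, printed above, fell by 0.35 in ELI against DMSO (adjusted p = 0.0088), by 0.48 in Comb against DMSO (adjusted p = 0.00071) and by 0.64 in Comb against ABT (adjusted p = 6.2e-05). MRPL49 fell by 0.51 in ELI against DMSO (adjusted p = 0.009) and MRPL54 by 0.48 in ELI against DMSO (adjusted p = 0.0065). MRPL58 is a peptidyl-tRNA hydrolase built into the large subunit. It averaged 27.9 ± 0.458 FPKM in Comb, 27.3 ± 2.46 in ELI, 37.5 ± 3.76 in ABT and 33.9 ± 4.57 in DMSO (SD, n = 3), and fell by 0.30 in ELI against DMSO (adjusted p = 0.042) and by 0.41 in Comb against ABT (adjusted p = 0.0042). Its difference was -0.26 in Comb against DMSO (SE 0.10, adjusted p = 0.051), which did not pass.

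MRPL41 has been described as a binding partner of BCL2, the target of venetoclax. It had 37.8, 38.9 and 41.4 FPKM in Comb, 32.7, 44.7 and 39.5 in ELI, 50.002, 51.7 and 49.9 in ABT and 40.9, 48.8 and 45.3 in DMSO. The ABT libraries lay above all others, and Comb and ELI overlapped each other. MRPL41 fell by 0.35 in Comb against ABT (adjusted p = 0.0085), and its difference was -0.18 in Comb against DMSO (SE 0.10, adjusted p = 0.14), -0.21 in ELI against DMSO (SE 0.10, adjusted p = 0.12) and 0.17 in ABT against DMSO (SE 0.10, adjusted p = 0.31).

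Of the stalk proteins, which recruit translation factors, MRPL10 and MRPL11 fell and MRPL12 did not pass in the model of all 12 libraries. MRPL10 averaged 11.98 ± 0.486 FPKM in Comb, 12.6 ± 0.577 in ELI, 17.6 ± 1.54 in ABT and 16.7 ± 2.28 in DMSO (SD, n = 3). It fell by 0.37 in ELI against DMSO (adjusted p = 0.0099), by 0.44 in Comb against DMSO (adjusted p = 0.0024) and by 0.52 in Comb against ABT (adjusted p = 0.00057). MRPL11 averaged 18.98 ± 0.784 FPKM in Comb, 18.2 ± 1.49 in ELI, 29.4 ± 2.25 in ABT and 25.2 ± 3.91 in DMSO (SD, n = 3). It fell by 0.44 in ELI against DMSO (adjusted p = 0.0077), by 0.38 in Comb against DMSO (adjusted p = 0.01) and by 0.61 in Comb against ABT (adjusted p = 0.00041). MRPL12 had 0.768, 1.28 and 1.46 FPKM in Comb, 0.662, 1.08 and 0.846 in ELI, 1.80, 1.48 and 1.70 in ABT and 0.689, 1.18 and 1.47 in DMSO. Its ABT libraries lay above all others, the other groups overlapped, and the adjusted p was 0.089 in Comb against ABT and higher elsewhere. With the replicate number as a block in the 9 libraries of ELI, ABT and DMSO it passed in ABT against DMSO (0.35, adjusted p = 0.048). These low values rest on few reads.

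Around the site where the new chain leaves the ribosome, members moved both ways. MRPL22, MRPL23 and MRPL44 fell in ELI against DMSO, in Comb against DMSO and in Comb against ABT, MRPL24 fell by 0.41 in Comb against ABT (adjusted p = 0.0021), and MRPL39 passed in none. MRPL23 had 4.13, 4.11 and 4.26 FPKM in Comb, 4.25, 5.18 and 4.18 in ELI, 7.03, 7.73 and 7.33 in ABT and 5.82, 6.93 and 6.31 in DMSO. Its libraries with and without eliglustat did not overlap. MRPL23 fell by 0.41 in ELI against DMSO (adjusted p = 0.0027), by 0.51 in Comb against DMSO (adjusted p = 0.00035) and by 0.69 in Comb against ABT (adjusted p = 2.5e-05). MRPL44, a protein related to RNase III, averaged 28.9 ± 1.70 FPKM in Comb, 29.5 ± 0.954 in ELI, 42.5 ± 2.34 in ABT and 37.7 ± 3.73 in DMSO (SD, n = 3). MRPL44 fell by 0.34 in ELI against DMSO (adjusted p = 0.0066), by 0.37 in Comb against DMSO (adjusted p = 0.0024) and by 0.54 in Comb against ABT (adjusted p = 0.00012).

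MRPL45, related to a yeast protein that ties the exit site to the inner membrane, went the other way with both drugs. It had 42.9, 44.2 and 43.9 FPKM in Comb, 35.7, 35.3 and 39.3 in ELI, 36.7, 32.1 and 37.4 in ABT and 35.1, 35.7 and 36.6 in DMSO. The 3 Comb libraries lay above all others, which overlapped. MRPL45 rose by 0.28 in Comb against DMSO (adjusted p = 0.0055), by 0.30 in Comb against ABT (adjusted p = 0.0026) and by 0.24 in Comb against ELI (adjusted p = 0.046). With eliglustat alone its difference was 0.04 in ELI against DMSO (SE 0.07, adjusted p = 0.69).

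MRPL50, found only in mitochondria, rose furthest in the values as deposited. It had 12.3, 11.8 and 12.1 FPKM in Comb, 11.5, 8.80 and 10.2 in ELI, 7.61, 6.06 and 6.75 in ABT and 9.80, 6.31 and 7.18 in DMSO. The Comb libraries lay above all others, and ELI overlapped DMSO. MRPL50 rose by 0.59 in Comb against DMSO (adjusted p = 0.0031) and by 0.75 in Comb against ABT (adjusted p = 0.00049). The call in Comb against ABT was lost once the dependence of each library on GC content and gene length was taken out (0.12, adjusted p = 0.15), and the rise in Comb against DMSO was then 0.31 (adjusted p = 0.0023).

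MRPL34, with a bacterial counterpart, had 37.3, 34.1 and 35.0 FPKM in Comb, 30.6, 31.9 and 32.0 in ELI, 27.2, 30.9 and 27.8 in ABT and 23.9, 26.3 and 28.7 in DMSO. Comb lay above the other groups, and ELI lay above DMSO. MRPL34 rose by 0.42 in Comb against DMSO (adjusted p = 0.00077), by 0.30 in Comb against ABT (adjusted p = 0.0046) and, as the 1 member to do so, by 0.26 in ELI against DMSO (adjusted p = 0.023). That last call was lost without ELI replicate 2 (adjusted p = 0.059) or 3 (0.073). ABHD8 shares 13.2% of its exon bases.

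Further large subunit members rose by less. MRPL55 rose by 0.28 in Comb against DMSO (adjusted p = 0.011). MRPL32 rose by 0.22 in Comb against DMSO (adjusted p = 0.039) and by 0.28 in Comb against ABT (adjusted p = 0.011), calls that were lost in 8 of 24 alternative settings and without ABT replicate 2. MRPL57 rose by 0.21 in Comb against DMSO (adjusted p = 0.047), which was lost in 15 of 24. MRPL19 rose by 0.34 in Comb against ABT (adjusted p = 0.022). This call was lost without ABT replicate 2 (adjusted p = 0.085) or 3 (0.077) or Comb replicate 2 (0.086), and with the GC and length trend removed MRPL19 was lower (-0.23, adjusted p = 0.0081).

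Of the 23 tested small subunit members, 10 fell in ELI against DMSO, 10 fell and 1 rose in Comb against DMSO, and 12 fell and 1 rose in Comb against ABT, to be read against the shares of all genes given above. MRPS34, mutated in a human mitochondrial disease, had 41.1, 38.7 and 39.6 FPKM in Comb, 37.8, 39.3 and 39.1 in ELI, 62.2, 69.3 and 70.8 in ABT and 43.7, 56.0 and 55.8 in DMSO. The ABT libraries were above all DMSO libraries, and both were above Comb and ELI. MRPS34 fell by 0.40 in ELI against DMSO (adjusted p = 0.0053), by 0.36 in Comb against DMSO (adjusted p = 0.0056) and by 0.74 in Comb against ABT (adjusted p = 3.0e-05).

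MRPS2, another disease gene, had 5.46, 4.03 and 4.39 FPKM in Comb, 4.07, 4.47 and 4.10 in ELI, 7.79, 10.2 and 9.54 in ABT and 5.49, 7.24 and 6.63 in DMSO. Comb replicate 1 came close to DMSO replicate 1 without overlap. MRPS2 fell by 0.51 in ELI against DMSO (adjusted p = 0.0063), by 0.41 in Comb against DMSO (adjusted p = 0.013) and by 0.86 in Comb against ABT (adjusted p = 8.2e-05). MRPS16, likewise a disease gene with a bacterial counterpart, had 25.4, 24.9 and 25.1 FPKM in Comb, 26.6, 28.5 and 28.4 in ELI, 38.1, 43.3 and 46.8 in ABT and 30.9, 40.2 and 35.4 in DMSO. Its libraries with and without eliglustat did not overlap. MRPS16 fell by 0.33 in ELI against DMSO (adjusted p = 0.017), by 0.47 in Comb against DMSO (adjusted p = 0.0015) and by 0.74 in Comb against ABT (adjusted p = 4.6e-05).

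MRPS12, the protein of the decoding centre, averaged 22.0 ± 0.862 FPKM in Comb, 20.9 ± 1.26 in ELI, 31.5 ± 2.27 in ABT and 25.9 ± 4.19 in DMSO (SD, n = 3). It fell by 0.29 in ELI against DMSO (adjusted p = 0.045) and by 0.50 in Comb against ABT (adjusted p = 0.0012), and its difference was -0.21 in Comb against DMSO (SE 0.10, adjusted p = 0.097). MRPS33 was the small subunit member that rose, at 9.02, 9.03 and 9.52 FPKM in Comb, 8.46, 7.69 and 7.80 in ELI, 7.70, 6.28 and 7.56 in ABT and 8.26, 6.58 and 7.23 in DMSO. All its Comb libraries lay above the others. MRPS33 rose by 0.29 in Comb against DMSO (adjusted p = 0.018) and by 0.32 in Comb against ABT (adjusted p = 0.0074). Taking out the GC and length trend lost both calls (adjusted p = 0.092 in Comb against DMSO and 0.98 in Comb against ABT), and the first was also lost without DMSO replicate 2 (0.066) or 3 (0.052) or Comb replicate 3 (0.061).

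The 3 relatives of bacterial protein S18 sit in different places, MRPS18A in the large subunit and MRPS18B and MRPS18C in the small one. MRPS18A had 6.71, 7.28 and 6.83 FPKM in Comb, 6.07, 6.39 and 6.92 in ELI, 11.2, 12.04 and 13.1 in ABT and 8.37, 11.9 and 12.2 in DMSO. Every library with eliglustat lay below every library without it. MRPS18A fell by 0.65 in ELI against DMSO (adjusted p = 0.0014), by 0.56 in Comb against DMSO (adjusted p = 0.0019) and by 0.72 in Comb against ABT (adjusted p = 0.00024), and RSPH9 shares 47.0% of its exon bases. MRPS18B was the most abundant of the 3, with 35.6, 35.2 and 36.6 FPKM in Comb, 34.8, 37.2 and 38.2 in ELI, 49.0, 56.2 and 55.6 in ABT and 41.9, 50.9 and 45.2 in DMSO. Here too the libraries with and without eliglustat did not overlap. MRPS18B fell by 0.31 in ELI against DMSO (adjusted p = 0.01), by 0.35 in Comb against DMSO (adjusted p = 0.0035) and by 0.57 in Comb against ABT (adjusted p = 9.0e-05). MRPS18C stayed between 0.560 and 0.860 FPKM and was not tested.

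MRPS30 and MRPS36 are further members whose names do not give their place. MRPS30, a protein of the large subunit, had 19.9, 20.2 and 20.1 FPKM in Comb, 19.1, 18.5 and 17.8 in ELI, 18.7, 15.4 and 16.6 in ABT and 18.9, 17.03 and 15.7 in DMSO. Comb lay above all other libraries. MRPS30 rose by 0.21 in Comb against DMSO (adjusted p = 0.043) and by 0.24 in Comb against ABT (adjusted p = 0.021), and these calls were lost in 9 and 4 cases of leaving out 1 library. MRPS36 had 19.1, 18.2 and 19.5 FPKM in Comb, 18.5, 17.5 and 18.6 in ELI, 15.5, 15.1 and 15.4 in ABT and 19.1, 16.4 and 18.8 in DMSO, with ABT below all others. It rose by 0.29 in Comb against ABT (adjusted p = 0.0028), but lay at -0.21 without the trend in GC content and length (adjusted p = 0.093), and with the replicate block added to that it passed as lower (adjusted p = 0.031).

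**Figure D4:**
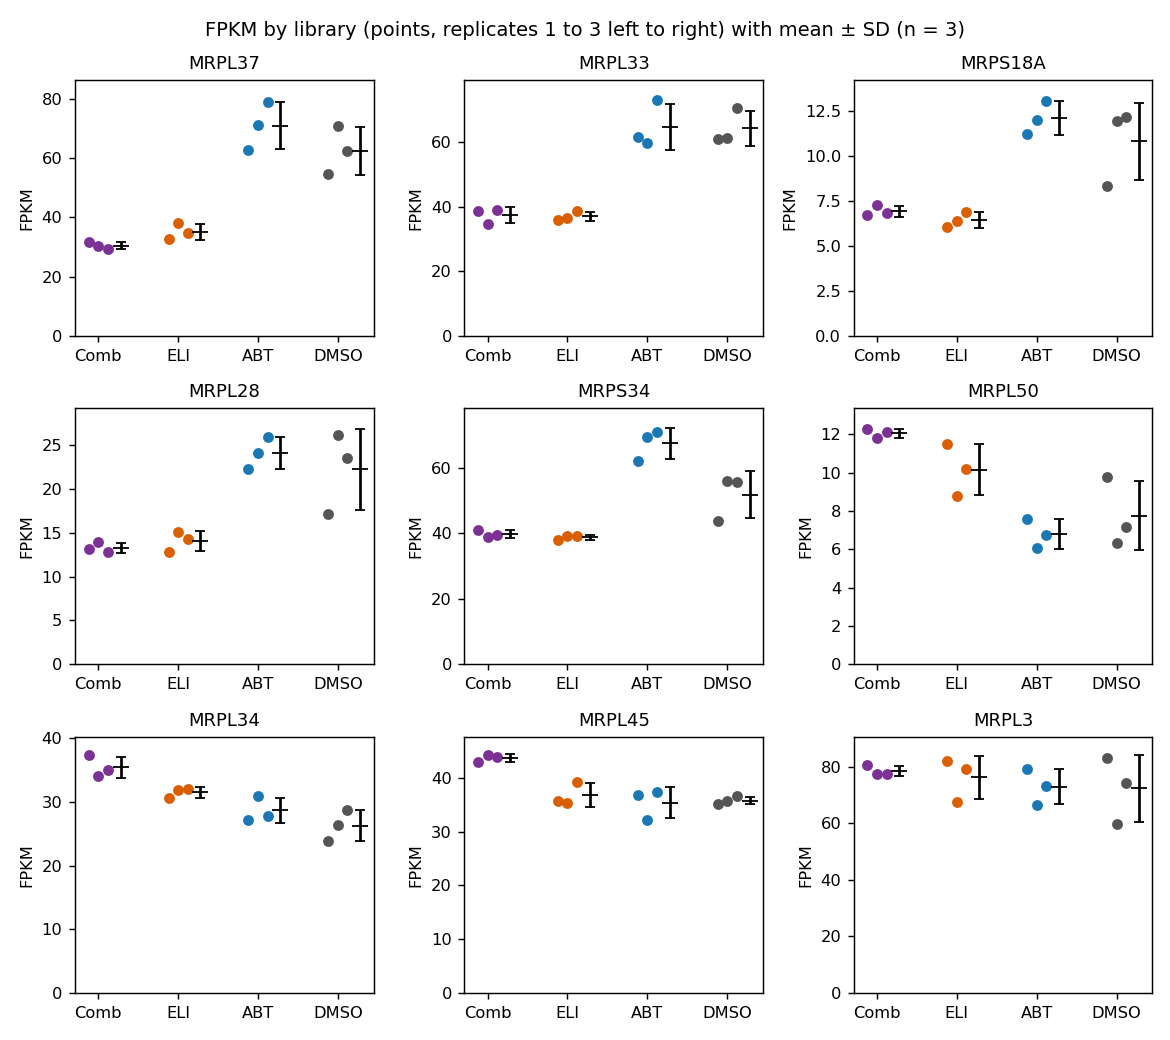
FPKM of 9 members in each library (points) of Comb, ELI, ABT and DMSO, with mean ± SD (n = 3). MRPL37, MRPL33, MRPS18A, MRPL28 and MRPS34 are lower in Comb and ELI, MRPL50, MRPL34 and MRPL45 are highest in Comb, and MRPL3, the most abundant member, overlaps between all groups.

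Proteins with a bacterial counterpart and proteins of mitochondria alone both included many that fell. With eliglustat alone 19 of 42 tested members with a counterpart fell and 1 rose (median -0.22), and 10 of 29 without one fell and 0 rose (median -0.11), where 19.8% of all genes fell. The 29 include MRPS36. They also include MRPS18A and MRPS18B, which fell and are described above as relatives of a bacterial protein. In Comb against DMSO 18 of the 42 fell and 3 rose (median -0.18), and 8 of the 29 fell and 5 rose (median -0.08), where 25.8% of all genes fell, a share near that of the 29. In Comb against ABT 24 of the 42 fell and 3 rose (median -0.26), and 12 of the 29 fell and 5 rose (median -0.10), where 31.7% of all genes fell and 35.4% rose. Whether these classes differ was not tested.

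Venetoclax alone gave no call among the members. None of the 71 passed in ABT against DMSO by limma, where 0.151% of all genes did, 17 members had an unadjusted p under 0.05 (20.2% of all genes did), and limma's voom on the recovered reads also called 0, where it called 0.151% of all genes. The median difference was 0.11 for the members and -0.02 for all genes, and 53 of the 71 were above 0. The libraries of ABT and DMSO did not overlap for 17 members that were higher and 1, MRPS36, that was lower, against 7.73% and 5.80% of all genes. The largest differences were 0.45 for MRPS2 (SE 0.12, adjusted p = 0.15) and 0.38 for MRPS34 (SE 0.09, adjusted p = 0.13).

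The count for venetoclax alone depended on the model, and so did the count over all genes. Libraries with the same replicate number deviated together between ELI, ABT and DMSO, least so for ELI replicate 3, and the labels state no pairing. With the number as a block over all 12 libraries 1 member passed, MRPS34 (adjusted p = 0.049), where 1.43% of all genes did. Over the 9 libraries of these groups 16 passed, 15 higher, with MRPS2 and MRPS34 at the smallest adjusted p (0.014), and MRPS36 lower (0.026), where 23.6% of all genes passed, a share near that of the members. The count was 7 higher and 0 lower with the GC and length trend removed (6.36% of all genes passed), 18 higher and 0 lower with trend and block together (12.1% of all genes), and 10 without DMSO replicate 2 (9.35% of all genes).

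Adding venetoclax to eliglustat gave few calls. In Comb against ELI 2 members rose and 0 fell, where 3.03% of all genes rose and 6.52% fell, with a median of 0.04 for the members and 0.01 for all genes. They were MRPL45, described above, and MRPL40, a mitochondria-specific large subunit protein. MRPL40 had 19.5, 17.4 and 18.9 FPKM in Comb, 15.2, 15.6 and 15.5 in ELI, 16.1, 16.8 and 18.6 in ABT and 16.2, 17.2 and 16.7 in DMSO. Every Comb library was above every ELI library, and Comb overlapped ABT. MRPL40 rose by 0.25 in Comb against ELI (adjusted p = 0.037). The calls of MRPL40 and MRPL45 were lost in 7 and 8 cases of leaving out 1 library, and both by voom (adjusted p = 0.060 and 0.056).

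The difference of eliglustat with venetoclax (Comb minus ABT) was set against that without it (ELI minus DMSO). No member passed this test by limma or by voom, where 1.68% of all genes were higher and 3.67% lower, and voom called 5.63% of them. Of the members 12 had an unadjusted p under 0.05, where 21.5% of all genes did. The median was -0.07 for the members and 0.02 for all genes. MRPS16 had -0.40 (SE 0.13, adjusted p = 0.11) and MRPL37 -0.39 (SE 0.15, adjusted p = 0.16). With the replicate block 3 members passed, MRPS36 higher and MRPL14 and MRPS16 lower, all named here after their values were seen, where 9.87% of all genes passed. With the GC and length trend removed 1 was higher and 5 were lower, where 6.91% of all genes were higher and 10.1% lower, and 4 passed without DMSO replicate 2, where 11.3% of all genes did. As shares of the 71 these counts lie below those of all genes.

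The differences of the members went with the GC content of their transcripts, as those of all genes did. Over the 71 members, Spearman's rho between difference and GC content was -0.45 in ELI against DMSO, 0.74 in ABT against DMSO, -0.37 in Comb against DMSO and -0.54 in Comb against ABT. Over all genes with a GC value it was -0.48, 0.66, -0.38 and -0.54 in these comparisons. The members that fell in Comb against ABT had a median GC content of 52.8% and those that rose 43.6%, against 48.7% for all tested genes. With the trend removed, rho over the members was between -0.08 and 0.06, near 0 by construction. The removal also takes out any difference between groups that goes with GC content. The counts were then 35 lower and 2 higher in ELI against DMSO, where 26.2% of all genes were lower and 47.2% passed in either direction. They were 31 lower and 10 higher in Comb against DMSO, where 30.3% of all genes were lower and 30.2% higher, and 44 lower and 6 higher in Comb against ABT, where 36.4% were lower and 31.7% higher. All 30 members called in ELI against DMSO passed again, as did 32 of the 34 in Comb against DMSO and 39 of the 44 in Comb against ABT.

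**Figure D5:**
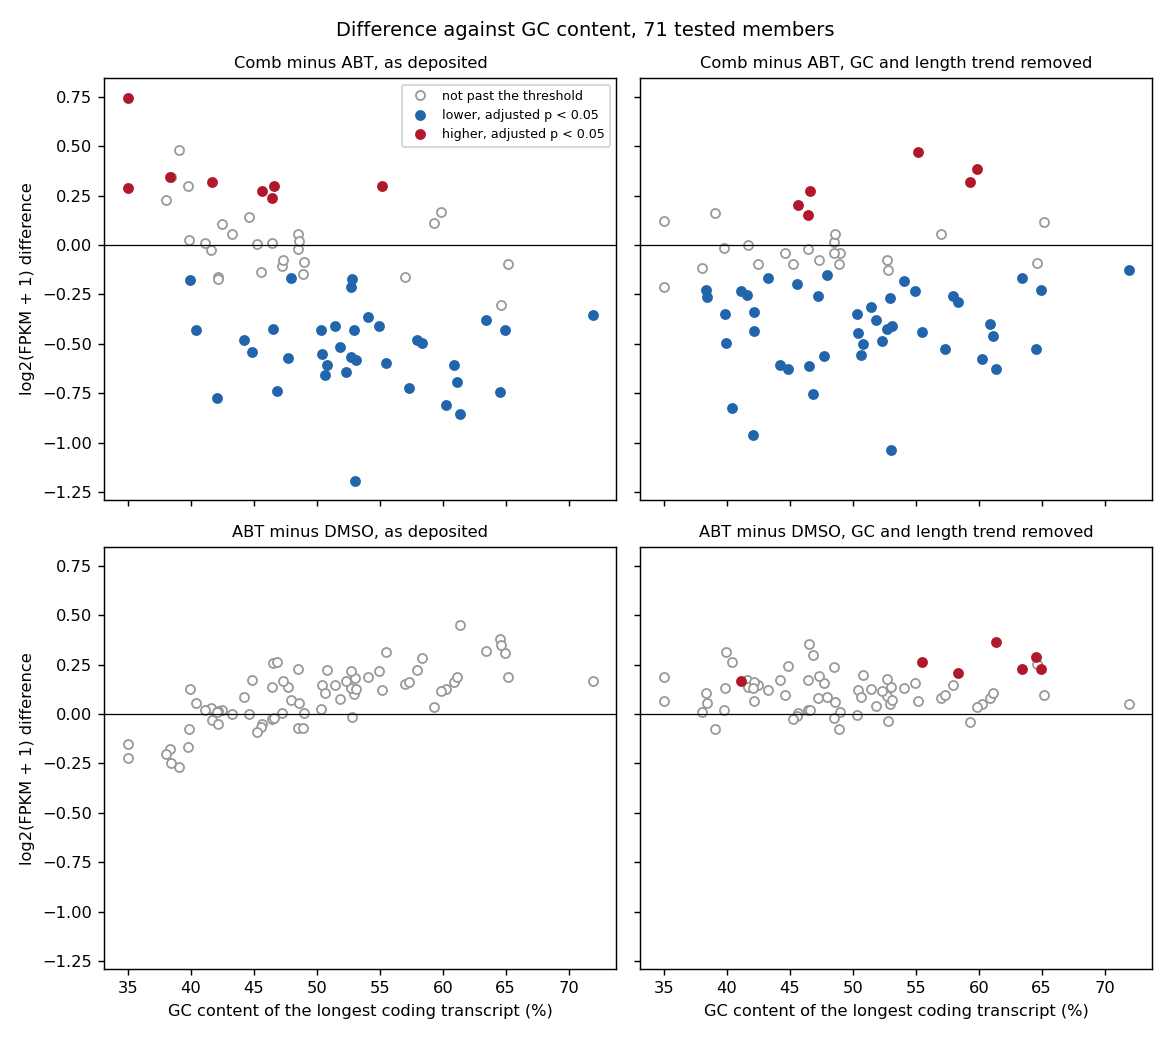
Difference in log2(FPKM + 1) against GC content for the 71 tested members, in Comb minus ABT and ABT minus DMSO, as deposited and with the GC and length trend of each library removed. As deposited the points slope down in Comb minus ABT and up in ABT minus DMSO. With the trend removed the slope is gone by construction, while most points in Comb minus ABT stay below 0.

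Ribosomal proteins of the organelle with other symbols moved in part with the members. The counts in this and further lists are to be read against the shares of all genes, 19.8% lower and 16.4% higher in ELI against DMSO, 25.8% lower and 25.7% higher in Comb against DMSO, and 31.7% lower and 35.4% higher in Comb against ABT. GADD45GIP1, a large subunit protein, averaged 13.5 ± 0.764 FPKM in Comb, 13.0 ± 1.19 in ELI, 22.0 ± 0.969 in ABT and 17.9 ± 2.21 in DMSO (SD, n = 3). It fell by 0.43 in ELI against DMSO (adjusted p = 0.0043), by 0.37 in Comb against DMSO (adjusted p = 0.006) and by 0.66 in Comb against ABT (adjusted p = 8.6e-05). In the small subunit, AURKAIP1 fell by 0.33 in Comb against DMSO (adjusted p = 0.02) and by 0.57 in Comb against ABT (adjusted p = 0.0006), CHCHD1 fell by 0.19 in Comb against DMSO (adjusted p = 0.045) and by 0.21 in Comb against ABT (adjusted p = 0.021), and DAP3 and PTCD3 passed in none of the comparisons.

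Of 29 tested factors that build the mitochondrial ribosome, 12 fell and 1 rose in ELI against DMSO (median -0.11), 11 fell and 4 rose in Comb against DMSO (median -0.10), and 17 fell and 4 rose in Comb against ABT (median -0.26). RCC1L, an assembly factor, averaged 13.4 ± 0.286 FPKM in Comb, 13.2 ± 0.713 in ELI, 23.5 ± 2.0004 in ABT and 19.8 ± 2.71 in DMSO (SD, n = 3). It fell by 0.55 in ELI against DMSO (adjusted p = 0.0011) and by 0.77 in Comb against ABT (adjusted p = 3.4e-05). METTL17, a factor of the small subunit, fell by 0.65 in Comb against DMSO (adjusted p = 0.00017). MTERF4, the partner of the RNA methylase NSUN4, rose instead, with 5.73 ± 0.140 FPKM in Comb, 4.27 ± 0.0632 in ELI, 3.88 ± 0.291 in ABT and 3.6001 ± 0.185 in DMSO (SD, n = 3). MTERF4 rose by 0.55 in Comb against DMSO (adjusted p = 2.7e-05), by 0.47 in Comb against ABT (adjusted p = 7.7e-05) and by 0.35 in Comb against ELI (adjusted p = 0.0037).

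Among 15 tested translation factors, 2 fell and 1 rose in ELI against DMSO, 4 fell and 5 rose in Comb against DMSO, and 5 fell and 4 rose in Comb against ABT. TUFM, the elongation factor that brings transfer RNA to the ribosome, averaged 72.3 ± 1.73 FPKM in Comb, 62.5 ± 5.76 in ELI, 116 ± 12.3 in ABT and 94.7 ± 15.4 in DMSO (SD, n = 3). TUFM fell by 0.58 in ELI against DMSO (adjusted p = 0.0027) and by 0.67 in Comb against ABT (adjusted p = 0.00041). The insertase OXA1L, which binds the ribosome at the inner membrane, fell by 0.20 in ELI against DMSO (adjusted p = 0.028), and the release factor MTRF1L rose by 0.33 in ELI against DMSO (adjusted p = 0.047). The initiation factor MTIF3 rose by 0.60 in Comb against ABT (adjusted p = 0.001).

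Of 16 tested genes for copying, transcribing and processing mitochondrial DNA and RNA, 2 fell and 2 rose in ELI against DMSO, 2 fell and 4 rose in Comb against DMSO, and 4 fell and 5 rose in Comb against ABT. ELAC2, which trims mitochondrial transfer RNA, fell by 0.40 in ELI against DMSO (adjusted p = 0.0017), and POLG2, the accessory subunit of the mitochondrial DNA polymerase, rose by 0.50 in Comb against DMSO (adjusted p = 0.00025). POLG2 was also higher in the test of eliglustat with against without venetoclax (0.43, adjusted p = 0.045).

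Of the 13 messenger RNAs that mitochondrial ribosomes translate, 8 fell in ELI against DMSO (median -0.27), 6 in Comb against DMSO (median -0.21) and 10 in Comb against ABT (median -0.35), and 0 rose. The 13 are not independent replicates. All mitochondrially encoded genes together took 5.65% of reads in DMSO replicate 1, 5.79% in ELI replicate 2 and 5.66% in Comb replicate 1. On this share both ELI and Comb overlapped DMSO. MT-CYB, encoding cytochrome b, averaged 2888 ± 24.0 FPKM in Comb, 2898 ± 208 in ELI, 4110 ± 341 in ABT and 3719 ± 393 in DMSO (SD, n = 3). It fell by 0.36 in ELI against DMSO (adjusted p = 0.009), by 0.36 in Comb against DMSO (adjusted p = 0.0054) and by 0.51 in Comb against ABT (adjusted p = 0.00042). In ABT against DMSO no gene of these partner lists passed.

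Set beside the cytosolic ribosome, 29 of the 71 members fell and 1 rose in ELI against DMSO, where 17 of the 85 tested cytosolic proteins fell and 5 rose. In Comb against DMSO 26 members fell and 8 rose, where 10 cytosolic proteins fell and 26 rose. Across all tested genes 25.8% fell and 25.7% rose in that comparison. The share of cytosolic proteins that fell in ELI against DMSO was close to that of all genes (19.8%). In Comb against ELI the median difference was 0.04 for the members and 0.15 for the cytosolic proteins. These are descriptions, and the difference between the lists was not tested.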

How the data were processed

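Per the file headers, the authors deposited FPKM values for 20036 Ensembl genes in 12 libraries. Aligner, counter, annotation, build and strand setting are not stated in the labels. Symbols came from a table of gene names (20011 matched). The members and lists were chosen with earlier results of these data known. Whole reads could be recovered from the FPKM steps for 100.0% of the 16361 genes above 0, and gave depths of 17259898 to 21082302 reads. The 9959 genes that reached 1 FPKM in 3 or more libraries were fitted with limma 3.58.1 in R 4.3.3 (eBayes with trend and robust) on log2(FPKM + 1), with 4 group means, adjusted by Benjamini-Hochberg over all genes at 0.05. Differences are on this scale, which understates changes of low genes. The fit was also run on simulated libraries drawn independently of each other. Those held neither a lean along GC content nor deviations shared by replicate number, so that run does not bear on either.

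The rule for named members took those called with the largest differences (up to 8 per direction and comparison), the highest and lowest 3, and MRPL12, MRPL41, MRPL44, MRPL45, MRPL58, MRPS12, MRPS18A, MRPS18B, MRPS18C, MRPS30 and MRPS36, plus up to 3 called genes of each partner list per comparison. Members of the stalk and exit site are named as lists, and members outside the rule were picked after their values were seen. Exon sharing and GC content came from GENCODE 29, whose exon union equals the recovered gene length for 17 of 77 members, so both are approximate. GC values covered 99.8% of tested genes, and a loess trend (span 0.5) on GC content and length was removed per library in an alternative.

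Same-numbered libraries deviated together over all genes between DMSO, ELI and ABT (r of 0.24 to 0.88) but not with Comb (-0.40 to 0.16). The lowest values in the first 3 groups were those of ELI replicate 3, 0.24 with DMSO and 0.26 with ABT. The labels state no pairing, and what the numbers stand for is not known. Other alternatives were scaling, filter, pseudocount, replicate block, only the groups compared, voom on recovered reads, single libraries left out and, chosen after seeing the data, leaving out the 4 libraries numbered 1. Protein sequences were not used here. One list of cell type markers is not reported here.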

Additional observations from a re-analysis of the deposited data

How the results depend on the processing

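The up to 8 members with the largest falls in ELI against DMSO, Comb against DMSO and Comb against ABT passed in the same direction under every alternative run. Counts of called members moved by over 1.5 times as follows. Counts over all genes also moved in those fits whose shares are given above, and were not worked out for the rest. Neither the counts below nor their ranges are thus to be read as particular to the members. For ELI against DMSO the count of 30 was 19 with only the groups compared in the fit. For ABT against DMSO the count of 0 was 1 with the replicate block, 16 with the block in 9 libraries, 7 with the GC and length trend removed, 18 with trend and block, and 2 without the 4 libraries numbered 1. For Comb against ELI the count of 2 was 0 with median-of-ratios scaling or voom, 1 with no filter, 6 with the trend removed, 11 with trend and block, 7 with only the groups compared and 4 without the libraries numbered 1. For eliglustat with against without venetoclax the count of 0 was 3 with the replicate block, 6 with the trend removed, 11 with trend and block, and 7 without the libraries numbered 1. With 1 library left out in turn, counts ranged from 24 to 38 in ELI against DMSO, 0 to 10 in ABT against DMSO, 26 to 41 in Comb against DMSO, 39 to 48 in Comb against ABT, 0 to 4 in Comb against ELI and 0 to 4 in the last test. In Comb against ABT, MRPL19 turned to -0.23 and MRPS36 to -0.21 with the trend removed, with or without the block. The cause was not tested. Over all alternatives the median difference of the members ranged from -0.22 to -0.13 in ELI against DMSO, 0.06 to 0.15 in ABT against DMSO, -0.16 to -0.10 in Comb against DMSO, -0.23 to -0.16 in Comb against ABT, 0.02 to 0.05 in Comb against ELI and -0.12 to -0.02 in the last test. Under the block all 30 calls of ELI against DMSO, all 34 of Comb against DMSO and all 44 of Comb against ABT were kept. Fewer were kept in every fit with 1 library left out. These were 23 of the 30, 25 of the 34 and 37 of the 44, of which 0, 4 and 5 were higher. Few reads limit what can be seen for MRPL12 (12 to 35 per library).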
